A study of Homo sapiens with 5 samples.

Results

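The peroxiredoxin and thioredoxin antioxidants are a set of 10 genes, chosen by symbol from the 24497 gene rows of the deposited count table, and all 10 had a row. They are the peroxiredoxins PRDX1 to PRDX6, thioredoxin (TXN), thioredoxin reductase 1 (TXNRD1), superoxide dismutase 1 (SOD1) and glutathione peroxidase 4 (GPX4). They were measured in HEK293 cells, a long-established line of human embryonic kidney origin, grown in DMEM with glutamine and fetal calf serum. The RNA sequencing was primed with oligo-dT and kept the 5' end of each transcript. Batch B comprised 3 libraries and batch A comprised 2 libraries. The labels name no treatment and no difference other than batch, and both batches share one protocol. Each library was amplified with 18 PCR cycles from a portion, worth 100 cells, of a lysate of 1000 pooled cells, so no value belongs to a single cell. The labels do not say whether libraries came from separate cultures, so the p-values rest on variation among libraries that may be purely technical.

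Cells remove peroxide through relays of reactive cysteines. A peroxiredoxin reduces hydrogen peroxide and is itself oxidised, thioredoxin reduces most peroxiredoxins back, and thioredoxin reductase recharges thioredoxin with electrons from NADPH. SOD1 turns superoxide into hydrogen peroxide, and GPX4 uses glutathione to remove lipid hydroperoxides from membranes. TXNRD1 and GPX4 are selenoproteins, with selenocysteine in the active site. NRF2, encoded by NFE2L2, is a transcription factor that switches on many of these genes through the antioxidant response element.

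Promoter sequence is shown for the members that differ most in level or direction, since the assay keeps 5' ends. The table counts whole genes, so it does not tell which annotated start the counts came from. RefSeq windows of GRCh38.p14, from 250 bases before to 50 bases after a start, matched 7 of the 10 members with 11 windows. PRDX1, PRDX6 and SOD1 had none. Each sequence below runs 5' to 3' from 200 bases before the start to the start base. Capitals mark the core of the antioxidant response element (TGACNNNGC), the TATA box (TATAAA) and the CCAAT box (CCAAT), each searched on both strands. The GPX4 window shown is the first of those with the most CCAAT matches among the windows of GPX4. The last capital of the GPX4 sequence is the first base of a CCAAT match that runs past the start. In the TXN window the TATAAA match overlaps its own match on the opposite strand. The last match in the first TXNRD1 window ends on the start base.
TXNRD1, chr12:104215579-104215779, plus strand: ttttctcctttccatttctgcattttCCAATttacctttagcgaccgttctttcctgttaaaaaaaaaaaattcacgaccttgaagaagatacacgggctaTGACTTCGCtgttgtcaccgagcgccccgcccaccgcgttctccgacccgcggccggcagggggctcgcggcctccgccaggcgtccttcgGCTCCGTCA
TXNRD1, chr12:104286832-104287032, plus strand: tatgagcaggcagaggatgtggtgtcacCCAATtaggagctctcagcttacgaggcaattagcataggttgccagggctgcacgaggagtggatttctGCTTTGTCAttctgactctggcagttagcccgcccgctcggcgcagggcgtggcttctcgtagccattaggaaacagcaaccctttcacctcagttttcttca
TXN, chr9:110256507-110256707, minus strand: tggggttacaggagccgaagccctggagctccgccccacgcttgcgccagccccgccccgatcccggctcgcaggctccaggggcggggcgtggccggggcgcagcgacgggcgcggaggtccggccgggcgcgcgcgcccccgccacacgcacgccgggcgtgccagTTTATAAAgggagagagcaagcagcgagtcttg
GPX4, chr19:1103794-1103994, plus strand: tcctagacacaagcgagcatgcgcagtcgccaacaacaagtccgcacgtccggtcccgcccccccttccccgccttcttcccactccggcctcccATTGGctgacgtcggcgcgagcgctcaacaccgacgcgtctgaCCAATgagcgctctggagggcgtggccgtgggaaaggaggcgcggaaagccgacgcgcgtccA

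The antioxidant response element core was present in 2 of the 11 windows, both of TXNRD1, against 13.3% of the 35116 promoter windows of the genome. The first TXNRD1 window held it at position -99 on the plus strand and at -8 on the minus strand, and the second at -102 on the minus strand. TATAAA was present in 1 window, that of TXN, against 11.5% of all windows. CCAAT was present in 4 windows, against 34.6% of all, and GGGCGG, the GC box, was present in all 11, against 45% of all. Windows of PRDX5 overlap, as do windows of GPX4, so the 11 windows are not independent. The same CCAAT sites of GPX4 counted in 2 of them. A match is a match of letters and not a measured binding site.

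The libraries held 373687, 575472 and 685181 gene counts in batch B and 686883 and 803168 in batch A. Synthetic spike-in RNA gave 1 to 19 counts in batch B libraries and 1785 and 2127 in batch A libraries, although one protocol is given for both. Mitochondrially encoded rows took 3.77% to 5.39% of gene counts in batch B and 2.97% and 3.25% in batch A. All 10 HEK293 marker genes listed had counts, at 350 to 613 summed counts in batch B and 547 and 653 in batch A. Most of these counts were of VIM, and PAX2 had only 1 to 4 counts per library. Of the markers of other cell types, 3 of 6 had a row. Their sums were 5 to 14 counts in batch B and 4 and 10 in batch A, mostly COL1A1, and ALB was listed at 0. Levels are given in CPM, counts scaled to the library's gene total, and intervals on single libraries are exact 95% Poisson intervals, which cover counting error only.

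Together the 10 genes took 0.59%, 0.616% and 0.616% of gene counts in batch B libraries 1, 2 and 3, and 0.676% and 0.656% in batch A libraries 2 and 3. Their summed level averaged 6074 ± 154 CPM in batch B (SD, n = 3) and 6663 ± 141 CPM in batch A (SD, n = 2), so every batch B library lay below both batch A libraries. The difference of -589 CPM has no test, since the genes were chosen as a set. In such bulk samples fewer cells of a kind and less RNA per cell cannot be told apart. The 6 peroxiredoxins made up 50.2% to 50.6% of the member counts in batch B and 52.8% and 53.4% in batch A.

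Levels spanned about an order of magnitude, with TXN at the top and its reductase at the bottom. Over the 5 libraries TXN averaged 1158 CPM, PRDX1 1065 CPM, SOD1 1050 CPM, GPX4 728 CPM and PRDX2 558 CPM. Lower down were PRDX6 at 468 CPM, PRDX4 at 460 CPM, PRDX3 at 413 CPM, PRDX5 at 289 CPM and TXNRD1 at 122 CPM. TXN ranked 94th to 115th among all gene rows of a library, and TXNRD1 ranked 1406th to 2271st. In 42 of the 45 pairs of members the order of counts was the same in all 5 libraries. The exceptions were PRDX1 and TXN, PRDX1 and SOD1, and PRDX4 and PRDX6, neighbours in level whose order changed between libraries. The protocol isolates the 5' terminal fragment, so CPM was not divided by length in this order. Divided by the median length of the coding transcripts in GENCODE, levels were 1539 CPM per kilobase for TXN, 1147 for SOD1, 1043 for PRDX1 and 31.8 for TXNRD1, and 4 of the 10 members kept their place.

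**Figure D1:**
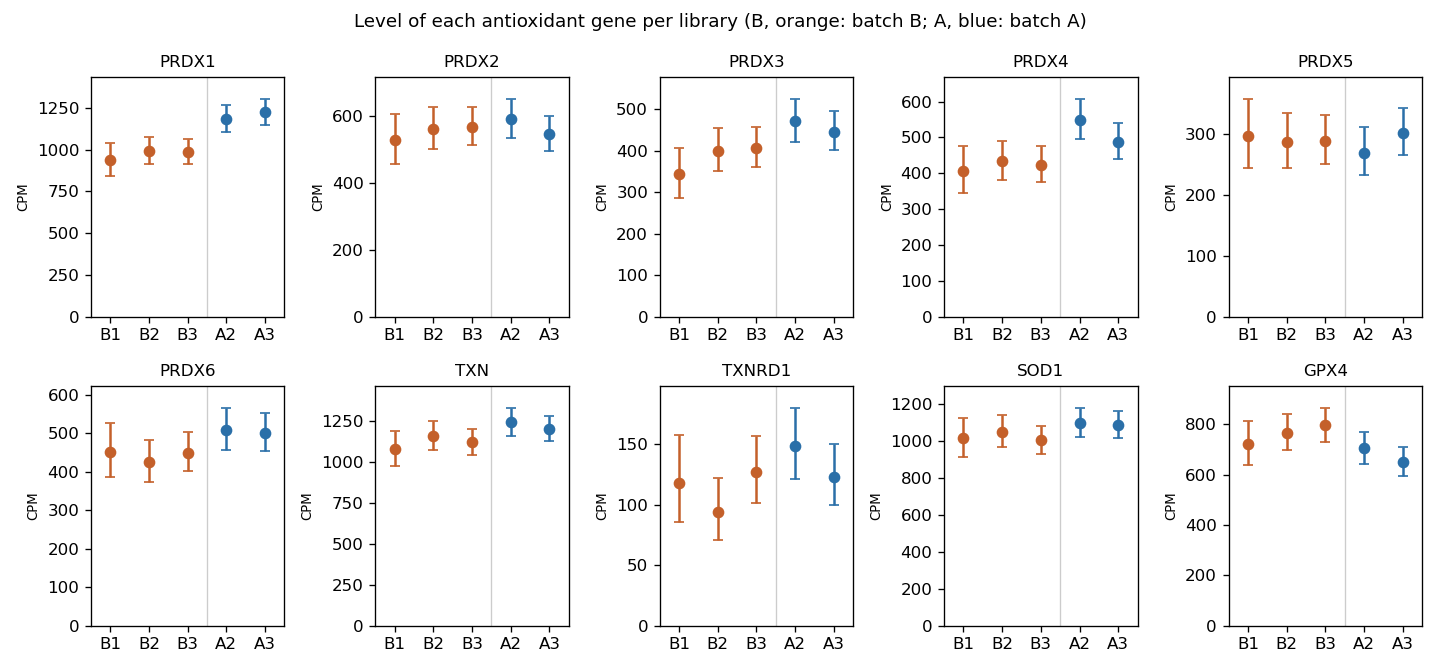
Level of each member in CPM (y axis) in batch B libraries 1 to 3 (B1 to B3, orange) and batch A libraries 2 and 3 (A2 and A3, blue), with exact 95% Poisson intervals of the counts. PRDX1 sits at 937 to 992 CPM in batch B and at 1185 and 1225 CPM in batch A, while GPX4 sits at 723 to 795 CPM in batch B and at 705 and 650 CPM in batch A.

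Batch B was set against batch A to ask which transcripts differ when one line is profiled in another batch. In edgeR's quasi-likelihood test, adjusted after Benjamini and Hochberg over all 9215 tested genes, 0 of the 10 members passed the threshold of 0.05, against 4.2% of all tested genes and 11.3% of the 1604 tested genes with a mean count within the members' range of 77.2 to 729. At an unadjusted p under 0.05 there were 3 members, PRDX1, PRDX3 and PRDX4, against 16.4% of all tested genes and 30.4% of the 1604 genes in that count range. The members' share of 30% is near that background. DESeq2 called 0 of the 9 members it gave an adjusted p, all but TXNRD1, against 7.08% of all genes with one, and 2 of the 10 members had an unadjusted p under 0.05, against 7.85%. With limma-voom 0 members were called, against 3.85% of all tested genes, and 4 had an unadjusted p under 0.05, against 16.5%. For DESeq2 and limma-voom no share within the members' count range was computed, so these counts have no background of like abundance. The libraries of the batches did not overlap in CPM for 7 members. Of these, 6 were lower in batch B, against 17.8% of all tested genes and 31.9% of genes in the same count range, and 1 was higher, against 13.5% of all tested genes. The median log2 fold change was -0.13 over the 10 members, -0.04 over genes in the same count range and 0.004 over all tested genes.

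PRDX1, the abundant cytosolic peroxiredoxin, had 350, 571 and 676 counts in batch B libraries 1, 2 and 3 and 814 and 984 counts in batch A libraries 2 and 3. In CPM it stood at 937, 992 and 987 in batch B and at 1185 and 1225 in batch A, a gap several times the spread within either batch. The fitted log2 fold change of PRDX1 was -0.28 (SE 0.11, 95% interval -0.50 to -0.06, edgeR adjusted p = 0.145). It was lower in 3 of 3 batch B libraries, and the difference did not pass the correction. With library totals in place of TMM scaling, PRDX1 was called, at -0.31 and edgeR adjusted p = 0.0207. The adjusted p of PRDX1 was 0.0535 with DESeq2 and 0.0525 with limma-voom, and over the alternatives it ran up to 0.48. Without the mitochondrially encoded rows, whose share was higher in batch B, the log2 fold change of PRDX1 was again -0.28. Reads may be shared with MMACHC, a vitamin B12 processing gene with exons that overlap those of PRDX1 on the opposite strand, since use of strand is not given. MMACHC had 122 counts in all, against 3395 for PRDX1.

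PRDX2, the other cytosolic form of this type and abundant in red blood cells, stood at 527, 561 and 566 CPM in batch B and at 590 and 544 CPM in batch A. The batches overlapped. Its log2 fold change was -0.01 with a 95% interval of -0.22 to 0.21.

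PRDX3 is the peroxiredoxin of the mitochondrial matrix, where it works with the mitochondrial thioredoxin TXN2. It stood at 343, 400 and 406 CPM in batch B and at 470 and 446 CPM in batch A, with the lowest value in the shallowest library. The log2 fold change of PRDX3 was -0.22 (SE 0.10, edgeR adjusted p = 0.269). TXN2 averaged 203 ± 4.11 CPM in batch B (SD, n = 3) and 214 ± 21 CPM in batch A (SD, n = 2).

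PRDX4, the peroxiredoxin of the endoplasmic reticulum, had 152, 249 and 290 counts in batch B and 377 and 392 counts in batch A. That is 407, 433 and 423 CPM in batch B and 549 and 488 CPM in batch A, with batch A libraries further apart than those of batch B. The log2 fold change of PRDX4 was -0.27 (SE 0.11, 95% interval -0.48 to -0.06, edgeR adjusted p = 0.141), the smallest adjusted p of the members. Batch B library 3 and batch A library 2, with nearly equal totals of 685181 and 686883 gene counts, differed by -0.38 on the log2 scale without any scaling. The fitted value of PRDX4 was -0.16 without batch A library 2 and -0.37 without batch A library 3.

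PRDX5, found in mitochondria, peroxisomes and cytosol, stood at 297, 287 and 289 CPM in batch B and at 269 and 303 CPM in batch A. Batch B lay inside the range of batch A. Its log2 fold change was 0.04 (95% interval -0.18 to 0.26). PRDX6, which uses a single cysteine and glutathione, stood at 452, 426 and 450 CPM in batch B and at 510 and 501 CPM in batch A. Batch B was lower without overlap, at a log2 fold change of -0.17 (95% interval -0.38 to 0.04, edgeR adjusted p = 0.46).

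**Figure D2:**
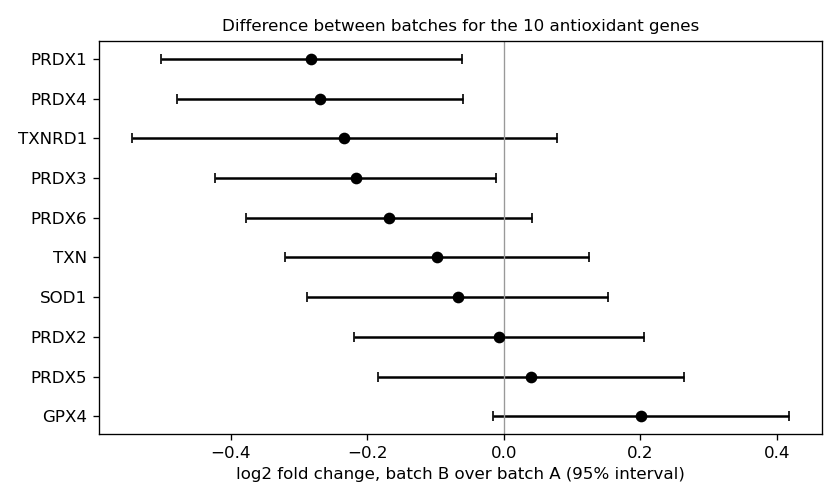
Fitted log2 fold change of batch B over batch A (x axis) for each member (y axis), with points for the edgeR estimates and bars for 95% intervals. PRDX1 is lowest at -0.28 and GPX4 highest at 0.20, and the intervals of PRDX1, PRDX4 and PRDX3 exclude 0 before adjustment.

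TXN, the small protein that recharges peroxiredoxins, stood at 1078, 1154 and 1118 CPM in batch B and at 1240 and 1198 CPM in batch A. Its log2 fold change was -0.10 (95% interval -0.32 to 0.12). It was -0.05 without batch A library 2 and -0.01 after thinning to the smallest library (1 draw). TXNRD1, which recharges TXN, had 44, 54 and 87 counts in batch B and 102 and 99 counts in batch A. In CPM that is 118, 93.8 and 127 in batch B and 148 and 123 in batch A, which overlap. TXNRD1 had the widest interval of the members, -0.54 to 0.08 around -0.23, and the fewest counts. Named pseudogene rows of members held few counts, and the largest was TXNP6, a copy of TXN, with 0, 1 and 0 counts in batch B and 5 and 5 in batch A. These are 0.302% of the counts of TXN, and reads of near-identical copies may have been split between rows.

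SOD1, the copper and zinc enzyme of the cytosol, stood at 1014, 1050 and 1003 CPM in batch B and at 1096 and 1086 CPM in batch A. The batches did not overlap, but the log2 fold change was -0.07 (95% interval -0.29 to 0.15), and it was -0.03 without batch B library 3 and -0.02 after thinning. GPX4 was the member with higher libraries in batch B, at 270, 441 and 545 counts in batch B and 484 and 522 counts in batch A. In CPM it stood at 723, 766 and 795 in batch B and at 705 and 650 in batch A, which did not overlap. The log2 fold change of GPX4 was 0.20 (SE 0.11, 95% interval -0.02 to 0.42, edgeR adjusted p = 0.357).

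Ratios of counts within a library do not depend on its scaling. GPX4 had 0.771, 0.772 and 0.806 counts per count of PRDX1 in batch B and 0.595 and 0.53 in batch A. Per count of PRDX4 it had 1.81 ± 0.061 counts in batch B (SD, n = 3) and 1.31 ± 0.0338 in batch A (SD, n = 2). For both ratios every batch B library lay above both batch A libraries. PRDX1 per TXN was 0.87 ± 0.0114 in batch B and 0.989 ± 0.0477 in batch A, and PRDX1 per PRDX2 was 1.76 ± 0.0179 in batch B and 2.13 ± 0.171 in batch A. TXN per TXNRD1 overlapped, at 8.8 to 12.3 in batch B and 8.35 and 9.72 in batch A. The pairs were chosen after their values were seen and are given without a test.

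**Figure D3:**
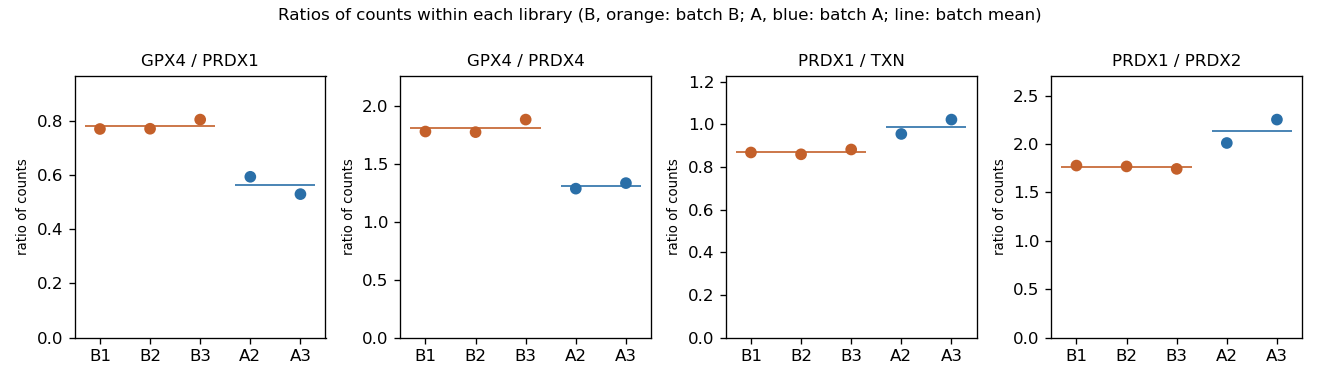
Ratio of the counts of pairs of members (y axis) in each library (B1 to B3, batch B, orange; A2 and A3, batch A, blue), with a line at each batch mean. GPX4 per PRDX1 averages 0.783 in batch B and 0.563 in batch A, and PRDX1 per PRDX2 averages 1.76 in batch B and 2.13 in batch A.

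Variation within a batch was set against counting noise. Chi-square per degree of freedom, which averages 1 for independent counts that vary by sampling alone, was 0.0438 for PRDX5 to 1.56 for TXNRD1 in batch B. In batch A it was 0.0378 for SOD1 to 2.65 for PRDX4. It was below 1 for 8 of 10 members in batch B and for 5 of 10 in batch A. With 3 or 2 libraries in a batch such values scatter widely around 1, so neither end by itself shows unusual spread. The edgeR test pools the spread over genes of like abundance, so a member with a small spread of its own is tested against that pooled value.

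The genes whose profile over the 5 libraries was nearest to that of PRDX4, the member of smallest p, were RPS25, ICMT and PRPS1. RPS25 is a ribosomal protein, ICMT methylates prenylated proteins and PRPS1 makes the ribose phosphate donor for nucleotides. Their root-mean-square differences from PRDX4, in centred log2 CPM, were 0.018, 0.023 and 0.024 among 9214 genes compared. RPS25 averaged 995 CPM in batch B and 1221 CPM in batch A. Among the other members PRDX1 was nearest to PRDX4, at 0.0692, and PRDX3 next, at 0.0695. They ranked only 95th and 98th among the 9214 genes. GPX4 was the farthest member, at 0.23 and rank 3059.

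The wider redox network was followed with 5 lists of 81 tested genes in all. Of these, 0 were higher and 5 lower in batch B, which is 6.17%, against 2.15% of all tested genes called higher and 2.05% called lower. Of 16 tested thioredoxin and glutaredoxin genes, 2 fell and 14 did not pass. TXNDC9, a thioredoxin-like regulator of the chaperonin CCT, had 7, 23 and 18 counts in batch B and 34 and 55 in batch A, a log2 fold change of -0.995 (edgeR adjusted p = 0.0131). TXNDC17, a cytosolic thioredoxin-like reductase, averaged 333 ± 35.2 CPM in batch B and 433 ± 11.1 CPM in batch A, a log2 fold change of -0.36 (edgeR adjusted p = 0.0268). TXNDC9 no longer passed when library 3 of batch A was left out (edgeR adjusted p = 0.376), nor when library 1 (0.0636) or library 3 (0.0997) of batch B was. TXNDC17 no longer passed when library 2 (edgeR adjusted p = 0.17) or 3 (0.217) of batch A or library 2 of batch B (0.296) was left out, nor after thinning (0.332). TXNL4A, a spliceosome component with a thioredoxin fold, averaged 207.2 CPM in batch B and 249.8 CPM in batch A and was not called, at -0.23.

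Of 20 tested glutathione genes 3 fell and 17 did not pass, against 2.05% of all tested genes called lower. MGST1, a membrane-bound glutathione transferase, had 13, 24 and 33 counts in batch B and 48 and 80 in batch A, a log2 fold change of -0.98 (edgeR adjusted p = 0.00143). CHAC2, which degrades glutathione, had 11, 16 and 31 counts in batch B and 39 and 66 in batch A, at -0.96 (edgeR adjusted p = 0.00649). MGST3, a relative of MGST1, averaged 148 ± 37.8 CPM in batch B and 210 ± 7.97 CPM in batch A, at -0.42 (edgeR adjusted p = 0.0419). With library 3 of batch A left out, MGST1 (edgeR adjusted p = 0.25) and CHAC2 (0.372) no longer passed, and CHAC2 also failed with library 2 of batch B left out (0.104) and after thinning (0.115). Among the fits that left out a library, MGST3 passed only without library 3 of batch B, with edgeR adjusted p = 0.347 and 0.139 when libraries 2 and 3 of batch A were left out and 0.258 and 0.071 when libraries 1 and 2 of batch B were. DESeq2 called TXNDC17 alone of the 5 genes, gave no adjusted p for TXNDC9, MGST1 and CHAC2, and did not call MGST3 (adjusted p = 0.116). MGST3 also failed with edgeR after thinning (0.0786), with no low-count filter (0.0863) or without mitochondrially encoded rows (0.0537). GSTP1, the most abundant transferase, averaged 1119 CPM in batch B and 1205 CPM in batch A, at -0.08. GPX1, the cytosolic selenium peroxidase, stood at 471, 443 and 431 CPM in batch B and at 361 and 372 CPM in batch A, without overlap, and was not called (0.30, edgeR adjusted p = 0.0785). It was called with a minimum mean count of 20, at edgeR adjusted p = 0.0339.

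In the other 3 lists edgeR and limma-voom called 0 genes, and so did DESeq2. Among 9 other scavengers and repair genes, 4 had an unadjusted edgeR p under 0.05, all lower in batch B. In either direction such a p was found for 16.4% of all tested genes and 30.4% of the 1604 genes in the members' count range. PARK7, a redox-sensitive chaperone, averaged 431 CPM in batch B and 513 CPM in batch A, and ATOX1, a copper chaperone, 319 CPM in batch B and 373 CPM in batch A. Among 21 NRF2 axis genes 2 had such a p, 1 in each direction. The ferritin chains FTL and FTH1 averaged 880 and 851 CPM in batch B and 911 and 880 CPM in batch A. Among 15 selenoprotein and selenium handling genes 7 had such a p, 6 lower and 1 higher, against the same 16.4% and 30.4%. Of all 9215 tested genes, 749 had such a p and were lower in batch B, and 765 were higher. The mean counts of SELM, SEPW1, SEPN1 and PSTK, which are among the 7, lay below the members' range. So did that of MSRB1, among the 4 scavenger and repair genes, and 30.4% is no background of like abundance for these genes. SEP15 and SELK, which reside in the endoplasmic reticulum, averaged 224 and 159 CPM in batch B and 252 and 205 CPM in batch A. The median log2 fold changes were -0.30, -0.02 and -0.29 for these 3 lists, against -0.14 for the thioredoxin and -0.18 for the glutathione list.

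**Figure D4:**
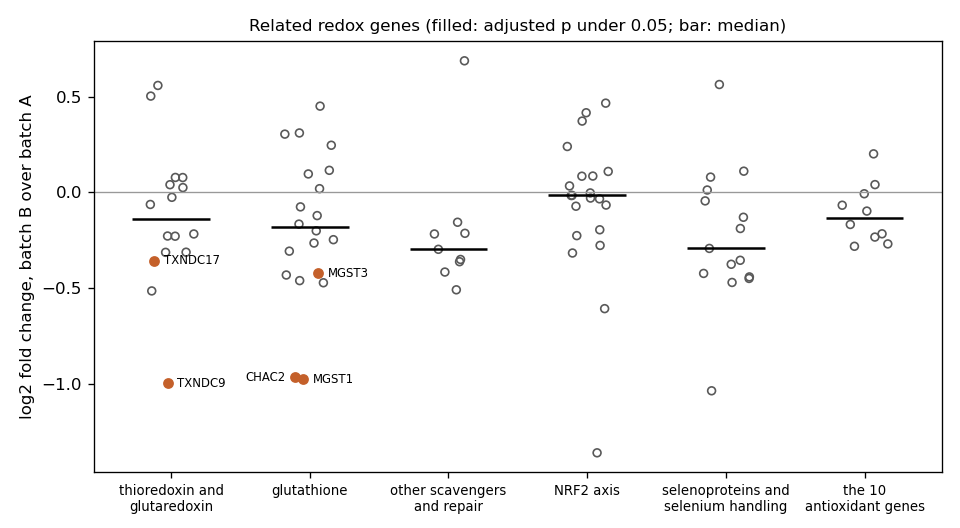
Log2 fold change of batch B over batch A (y axis) for each tested gene of the 5 lists and the 10 members (x axis), where filled points have an edgeR adjusted p under 0.05 and bars are medians. The 5 filled points, TXNDC9, TXNDC17, MGST1, CHAC2 and MGST3, all lie below 0, and none of the 10 members is filled.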

How the data were processed

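The authors' deposited values are raw whole-number counts per gene row. The submitters' processing notes name cutadapt 1.2.1 and STAR 2.4.0a, and the builds hg19 and GRCh37. Not given in the sources used here are the counting tool, the annotation, the use of strand and the collapse of molecular identifiers (4 N and 4 H bases, per the labels' protocols). Counting intervals are too narrow if identifiers were not collapsed. Each column's batch was read from the prefix that its name and the sample titles have in common, and their closing numbers only name libraries.

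Members and lists were chosen with earlier results of these data known. CPM came from gene counts without the 52 spike-in rows. Counts were tested with edgeR 4.0.16 in R 4.3.3 (TMM, filterByExpr, quasi-likelihood F test, batch as the only term), which kept 9215 genes with 97.1% of gene counts and all 10 members. Standard errors are log2 fold changes over the root of F, and 95% intervals are normal. The test was checked on simulated data. DESeq2 1.42.0 and limma 3.58.1 were alternatives. At 373687 to 803168 gene counts per library, 3 counts correspond to 8.03 to 3.74 CPM.

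Named genes are the members, called genes of each list, the 2 genes of highest mean CPM in each list, pseudogene rows with at least 10 counts, and the 3 genes nearest in profile to the member of smallest p. Others are named after their values were seen. Transcript lengths and overlaps came from GENCODE release 29, on another build, matched by name.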

Additional observations from a re-analysis of the deposited data

How the results depend on the processing

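The count of 0 members called held with DESeq2 size factors, DESeq2 (9 members with an adjusted p), limma-voom, no or a stricter low-count filter, thinning, added pseudogene rows, without mitochondrially encoded rows (chosen after seeing the data) and without any single library. It was 1 with library totals. The 5 related redox genes called became 1 with DESeq2, where 26 genes had an adjusted p, 3 after thinning (1 draw), 7 with a mean count of at least 20, of which 1 was higher and 6 lower, and 0 to 6 when a library was left out, with 3 and 0 when libraries 2 and 3 of batch A were the ones left out and 2 when library 2 of batch B was. The cause was not tested. Near-zero log2 fold changes turned sign: with a mean count of at least 20, PRDX2 was at 0.0091, FTL at 0.00038 and FTH1 at 0.00011. When a library was left out, PRDX2 ran from -0.083 to 0.076, PRDX5 from -0.011 to 0.11, FTL from -0.078 to 0.054 and FTH1 from -0.14 to 0.12. PRDX1 ran from -0.30 to -0.27, PRDX3 from -0.27 to -0.15, PRDX4 from -0.37 to -0.16, PRDX6 from -0.20 to -0.13, TXN from -0.14 to -0.05, SOD1 from -0.09 to -0.03, TXNRD1 from -0.39 to -0.08 and GPX4 from 0.12 to 0.28 in the same fits. Thinning moved members both ways in its 1 draw. It gave 0.25 for PRDX5, 0.26 for GPX4, -0.26 for PRDX3 and -0.06 for PRDX2. The same draw gave -0.22 for PRDX1, -0.20 for PRDX4, -0.15 for PRDX6 and -0.14 for TXNRD1. The difference in summed CPM was -689 to -489 over its alternatives. Per kilobase, 4 of 10 members kept their place in the order of levels. No paired analysis was possible because the closing numbers of the columns, 2 and 3 in batch A, are not the labels' replicate numbers, 1 and 2, and nothing ties a number to a shared culture or day. Depth limits TXNRD1 most, at 44 to 102 counts per library.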

Other observations

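Some genes that act on the peroxiredoxin relay or report NRF2 activity were low in these cells. They were picked after their values were seen and are given as values. SRXN1, the sulfiredoxin that repairs overoxidised peroxiredoxins, was listed at 0 counts in all 5 libraries. In a library taken alone, 0 counts allow a level of up to 8.03 CPM at the lowest and 3.74 CPM at the highest depth. The 5 libraries together allow less than either. NQO1, a quinone reductase widely used as an NRF2 target, had 2, 5 and 3 counts in batch B and 1 and 6 in batch A. HMOX1, the inducible heme oxygenase, had 3, 3 and 4 counts in batch B and 11 and 10 in batch A. TXNIP, which binds and inhibits thioredoxin, had 1, 10 and 9 counts in batch B and 6 and 4 in batch A. None of the 4 passed the low-count filter, so none was tested. Most genes of the same lists passed the filter, at 21 of 26 NRF2 axis genes and 16 of 19 thioredoxin and glutaredoxin genes. Some that passed were low, such as SLC7A11 at 12.2 CPM and MAFK at 17.1 CPM over the 5 libraries. OSGIN1 and AKR1C1, also of the NRF2 axis list, did not pass, at 1.32 and 0.249 CPM. Over the 5 libraries FTL averaged 892 CPM, FTH1 863 CPM, AKR1B1 331 CPM and TXNDC17 373 CPM.

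Among the selenoproteins, GPX4 and GPX1 had higher CPM in every batch B library than in either batch A library, as did 13.5% of all tested genes. SELT, SELM and SEPW1, small selenoproteins, had lower mean CPM in batch B. SELT averaged 124 ± 5.16 CPM in batch B and 172 ± 22.7 CPM in batch A, SELM 102 ± 0.912 CPM in batch B and 143 ± 9.19 CPM in batch A, and SEPW1 95.5 ± 18.5 CPM in batch B and 135 ± 7.86 CPM in batch A (SD, n = 3 in batch B and 2 in batch A). Their edgeR adjusted p values were 0.0518, 0.0687 and 0.108, so none passed. Other selenoproteins went both ways, and none was called. MSRB1 (-0.51, edgeR adjusted p = 0.0591) and C11orf31 (-0.38, edgeR adjusted p = 0.0918) were lower in batch B, as SELT, SELM and SEPW1 were. So were EPT1 at -0.42, VIMP at -0.35, SELK at -0.29, SELO at -0.19 and SEP15 at -0.13. SEPN1 was higher in batch B, at a log2 fold change of 0.56 (edgeR adjusted p = 0.172), as was TXNRD2 (0.56, edgeR adjusted p = 0.456). SEPHS2 was at 0.08. GPX3, a further glutathione peroxidase, was at -0.25 (SE 0.42, edgeR adjusted p = 0.844). TXNRD1 was at -0.23 (SE 0.16, edgeR adjusted p = 0.50). GPX4, GPX1, SELT, SELM and SEPW1 were singled out after their values were seen, and the difference between the groups was not tested.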
